A study of Homo sapiens with 24 samples.

Results

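The genes described here are 10 serum-responsive early genes or regulators of such genes: SRF, ELK1, EGR1, JUN, JUNB, JUND, MYC, IER2, CCN1 and CCN2. They were taken by RefSeq symbol, and all 10 carried at least 1 called m1A peak, among 9318 genes with a peak. Together they held 100 of 61237 peaks, on 14 of 17315 transcripts. N1-methyladenosine (m1A) is a methyl mark on adenosine in RNA, mapped here by immunoprecipitation (IP) with an anti-m1A antibody on polyadenylated RNA of HEK293T, a human embryonic kidney cell line. The tested cells were wild-type cells kept for 16 h in medium without serum (Starve), wild-type cells given 50 µM hydrogen peroxide for 30 min (H2O2), and cells with the demethylase gene ALKBH3 knocked out (KO), which received no treatment. The cells they were set against were untreated wild-type cells grown with serum, deposited once with the stress experiment (UT) and once with the knockout (WT). KO cells carry the ALKBH3 knockout, whereas every other group is wild type, and the labels do not say whether KO is 1 clone. Each of the 5 conditions had 2 IP libraries and 1 peak list per library, and nothing in the labels says that replicates came from separate cultures.

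Serum growth factors reach these genes along a well-known route. ERK kinases phosphorylate ELK1, which sits with SRF on serum response elements and switches on immediate early genes such as EGR1, JUNB and IER2 within minutes and without new protein synthesis. CCN1 and CCN2, secreted matrix proteins, are activated both through SRF and through YAP and TAZ with TEAD factors. ALKBH3 removes methyl groups from adenosine in RNA, and m1A in messenger RNA is known to be frequent near the transcript start.

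The SRF-binding element, the CArG box, can be read in the promoters of 2 of these genes in RefSeq sequence of build GRCh38.p14. The stretches are shown because SRF and EGR1 are the pair in which the box was found, and because CCN2 carries the core motif of TEAD factors, GGAATG or CATTCC. Capitals mark the motifs, the sequences run 5′ to 3′ on the gene's strand, and all lie upstream of the transcript start.
EGR1 promoter, chr5:138465354-138465425, plus strand: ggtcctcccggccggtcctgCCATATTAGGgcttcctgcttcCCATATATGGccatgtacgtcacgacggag
SRF promoter, chr6:43171219-43171268, plus strand: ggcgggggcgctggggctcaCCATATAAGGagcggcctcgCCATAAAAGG
CCN2 promoter, chr6:131951442-131951561, minus strand: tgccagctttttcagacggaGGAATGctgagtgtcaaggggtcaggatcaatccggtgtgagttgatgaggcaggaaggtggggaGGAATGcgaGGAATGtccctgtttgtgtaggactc

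Both strands of the 250 bases before each start were searched. The boxes begin 105 and 83 bases before the start of EGR1, and 30 and 10 bases before the start of SRF. Among all 35116 promoters searched, 407 (1.16%) held a CArG box and 4175 (11.9%) held GGAATG or CATTCC. Promoters of 8 of the 10 genes were matched, SRF with 2 entries. CCN1 and MYC were not matched. These letters describe the DNA upstream of the genes and are no measure of the methylation of their RNA.

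The number of lists that called a gene ranged from 3 to 9 of 10, with a median of 4.5, against a median of 3 over all genes with a peak. ELK1 and JUND were each called in 9 lists, a breadth shared by 253 genes (2.72%) at 9 lists or more, and CCN1 in 8. SRF was called in 6 lists, IER2 in 5, MYC and EGR1 in 4, and JUN, JUNB and CCN2 in 3. The lists called 7 and 6 of the 10 genes in Starve, 7 and 5 in H2O2, 6 and 6 in UT, 4 and 5 in KO and 1 and 7 in WT. Of all genes with a peak, the same lists called 51.9% and 41.3% in Starve, 37.5% and 21.6% in H2O2, 39.7% and 45.4% in UT, 22.1% and 22.4% in KO, and 13.5% and 21.9% in WT. The single gene called in WT replicate 1 was CCN1, and that list was also the shortest of all.

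**Figure D1:**
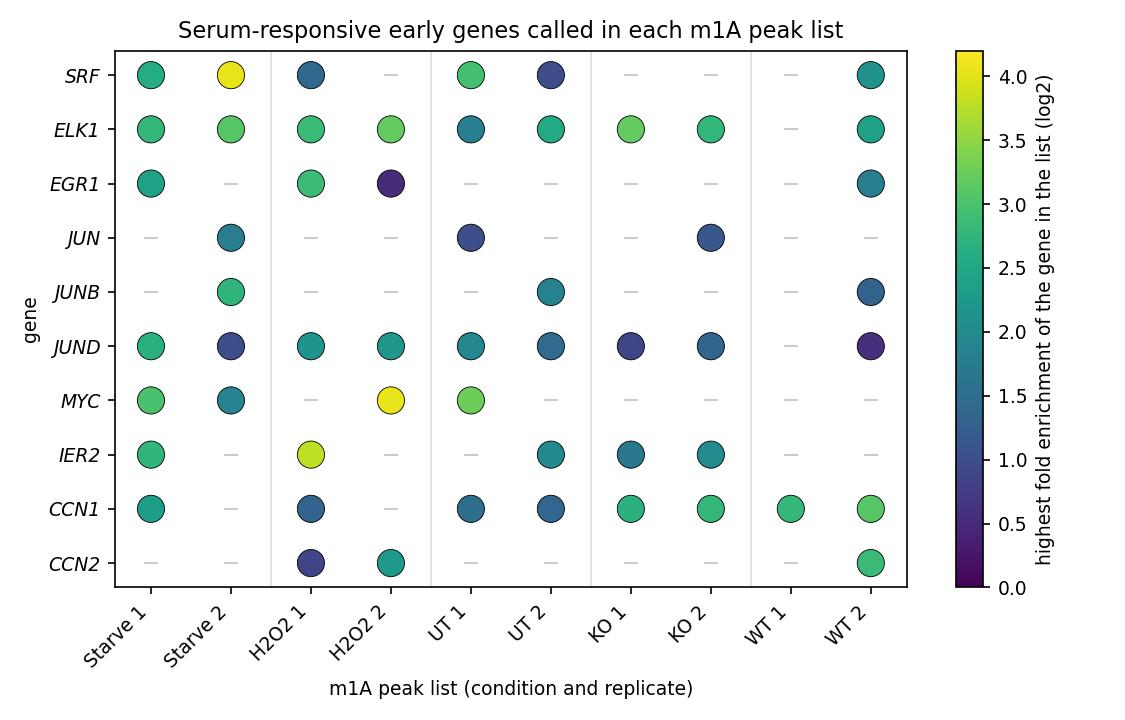
Calls of the 10 genes (rows) in the 10 m1A peak lists (columns). A filled point marks a called gene and its colour the highest fold enrichment of its peaks in that list on a log2 scale, and a grey dash marks a gene that was not called. ELK1 and JUND have points in 9 lists, CCN1 in 8, and WT replicate 1 has a single point.

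The lists themselves differed in length, which bears on every comparison of calling. Starve lists held 11362 and 8791 peaks, H2O2 lists 7459 and 3903, UT lists 7871 and 9295, KO lists 3447 and 3524, and WT lists 2175 and 3410. Library read totals are not in these lists, so the depth is unknown, and an uncalled region has no value. Over 93 regions called in all 10 lists, the median relative pileup of a list ranged from 0.755 (UT replicate 2) to 1.70 (WT replicate 2). Defining HEK293T genes had a peak for 7 of 8, and markers of other cell types for 1 of 9 (COL1A1, in both UT lists only), although a peak list does not measure expression. ALKBH3 had 0 peaks in every list, so these files offer no check of the knockout.

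A call is described by 2 values, as the authors' caller reported them: the pileup, which is the read coverage at the summit, and the fold enrichment over local background. Positions are nucleotides (nt) counted from the start of the RefSeq transcript. Peaks of the lists compared were merged into a region when they shared 1 nt or more. A region was called specific to a condition when it was held by both of its lists and by no list of the other condition. With 2 lists against 2 the smallest exact two-sided p is 0.333, so no count of genes below is a test, and each is set beside the share among all genes with a region.

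Starved and untreated cells shared few called regions of these genes between replicates, as was the case for genes at large. Of the 10 genes, 9 had a region in Starve or UT lists, all but CCN2. A region in both Starve lists and neither UT list was found for 1 gene, ELK1, against 5.34% of all 8464 genes with a region in this comparison. A region in both UT lists and neither Starve list was found for 0 members, against 4.06% of all genes. Regions shared by all 4 lists were found for 0 members, against 3.18% of all genes. Leaving out Starve replicate 1 gave 6 Starve-specific and 2 UT-specific members, and leaving out Starve replicate 2 gave 4 Starve-specific ones. Without UT replicate 1 there were 3 UT-specific members, and without UT replicate 2 there were 4. With 1 list left out, here and below, a single list decides for its condition. The share of all genes under that looser rule was not computed. Of 35 member regions, 26 (74.3%) stood in a single list, against 83.1% of all 30272 regions. Wherever on the gene the peaks lay, 4 members were called in both Starve lists and 4 in both UT lists. The share of all genes called in both lists of a condition was not computed. Counted wherever the peaks lay, 0 members were in both Starve lists and neither UT list, against 6.07% of all genes. The reverse was found for 0 members, against 4.08%.

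ELK1, the ETS-family factor that receives the ERK signal, was called next to the transcript start in 8 lists. On its transcript NM_005229 that peak had a pileup of 225 and 385 in Starve, 185 and 388 in H2O2, 172 in UT replicate 1, 363 and 270 in KO, and 313 in WT replicate 2. The fold was 5.19 and 8.54 in Starve, 4.24 and 9.11 in H2O2, 3.43 in UT replicate 1, 9.12 and 6.83 in KO, and 5.27 in WT replicate 2. The lowest fold and the lowest pileup of the 8 lists belonged to UT replicate 1, while UT replicate 2 and WT replicate 1 had no call there. The summits were within 116 to 135 nt in these 8 lists. UT replicate 2, the other list that called ELK1, had its summit on NM_005229 at nt 1610.

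The ELK1 call in favour of starvation depends on the transcript that is read. On NM_001114123 the 5′ peak had a pileup of 212 and 238 in Starve, with folds of 4.70 and 4.81, and no UT list called it. On NM_001257168 the pileup was 204 and 228 in Starve, with folds of 4.61 and 4.88, and again no UT list called it. On NM_005229 the UT replicate 1 peak spanned nt 58 to 157, inside the extent of the Starve peaks, and the region was not specific. The 3 transcripts share the signal of 1 gene, so they are not separate measurements. With the transcript that held most peaks standing for each gene, a choice made after the data were seen, 0 members had a Starve-specific region.

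ELK1 also carried peaks further downstream in single replicates. A peak at nt 1735 to 1847 of NM_005229 had a pileup of 67 and a fold of 6.87 in Starve replicate 1. Its counterpart at nt 1728 to 1838 had a pileup of 83 and a fold of 7.02 in H2O2 replicate 1. UT lists had peaks elsewhere, at nt 781 to 880 in replicate 1 (pileup 37) and at nt 1592 to 1691 in replicate 2 (pileup 51). None of these downstream regions was called in both replicates of a condition.

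SRF, the DNA-binding partner of ELK1, was called in both Starve and both UT lists, but at scattered places. On NM_003131 Starve replicate 2 had a peak at nt 10 to 115 with a pileup of 177 and a fold of 16.5, the second highest fold among the 100 member peaks, and another at nt 384 to 509 with a fold of 6.74. Starve replicate 1 had peaks at nt 517 to 825 (fold 6.02) and nt 1928 to 2027 (fold 2.49). UT replicate 1 had peaks at nt 137 to 478 (fold 5.98) and nt 3870 to 4043 (fold 7.71). No SRF region was shared by the 2 replicates of Starve or by those of UT. SRF was not called in H2O2 replicate 2, in either KO list or in WT replicate 1.

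EGR1, a zinc-finger factor and classic target of SRF, had no UT call at all. Starve replicate 1 held 3 low peaks, with pileups of 32, 51 and 24, folds of 2.38, 5.25 and 2.53 and summits at nt 182, 620 and 1643. Starve replicate 2 held none. H2O2 replicate 1 had a peak at nt 55 to 158 with a pileup of 413 and a fold of 7.29. H2O2 replicate 2 had one at nt 134 to 233 with a pileup of 123 and a fold of 1.42. These peaks overlapped only in part, with summits at nt 92 and 180, and were merged into 1 region. WT replicate 2 called nearly the stretch of H2O2 replicate 1, nt 53 to 152, with a pileup of 59, a fold of 3.39 and a summit at nt 97.

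Of the AP-1 genes, JUN and JUNB were called in at most 1 replicate of a condition. JUN, the founding AP-1 subunit, had peaks in Starve replicate 2 at nt 119 to 342 (pileup 146, fold 2.83) and nt 958 to 1057 (pileup 198, fold 3.40). In UT replicate 1 its peak was at nt 2406 to 2505 (pileup 165, fold 1.99), and in KO replicate 2 at nt 608 to 774 (pileup 217, fold 2.20). JUNB, an AP-1 subunit known as a weaker activator than JUN, had a pileup of 186 and a fold of 6.63 at nt 162 to 298 in Starve replicate 2, against 34 and 3.62 at nt 733 to 832 in UT replicate 2. WT replicate 2 called JUNB at nt 98 to 213, overlapping the Starve peak, with a pileup of 43 and a fold of 2.48.

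JUND, the AP-1 subunit that is expressed most steadily without serum, was the most regularly called of the 3. On NM_005354 the peak with its summit between nt 114 and 150 had a pileup of 457 in Starve replicate 1, 478 and 465 in H2O2, and 370 and 172 in UT. Its fold was 6.33 in Starve replicate 1, 4.51 and 4.66 in H2O2, and 3.76 and 2.70 in UT. Starve replicate 2 did not call it, and its sole JUND peak lay at nt 1457 to 1556 of NM_001286968 with a fold of 2.0.

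In KO and WT lists the highest point of JUND lay further downstream. On NM_005354 the summits were at nt 426 and 420 in KO and at nt 379 in WT replicate 2, with pileups of 403 and 482 in KO and 368 in WT replicate 2. The peak spanned nt 79 to 488 in KO replicate 2 and nt 71 to 454 in WT replicate 2, so it covered the 5′ position too. On NM_001286968, KO replicate 2 had a separate peak with its summit at nt 149. The stress conditions and the knockout have untreated lists of their own, UT and WT, so the place of the summit and the set of libraries cannot be told apart.

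MYC, the growth-promoting basic helix-loop-helix factor, was called in both Starve lists and UT replicate 1, but at different places. Starve replicate 1 had a peak at nt 7 to 132 with a pileup of 78 and a fold of 7.98, and Starve replicate 2 had one at nt 1034 to 1133 with a pileup of 285 and a fold of 3.70. UT replicate 1 had a peak at nt 131 to 310 with a pileup of 130 and a fold of 9.59, which overlapped the first Starve peak by 2 nt and was therefore merged with it. H2O2 replicate 2 called nearly the same stretch as UT replicate 1, nt 131 to 285, with a pileup of 271 and the highest fold of all member peaks, 16.6. No KO or WT list called MYC.

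IER2, an immediate early gene that encodes a small nuclear protein, was called at different places in different lists. Starve replicate 1 called nt 631 to 765 with a pileup of 163 and a fold of 6.69. UT replicate 2 called nt 185 to 284 (pileup 42, fold 3.94) and nt 980 to 1079 (pileup 49, fold 3.24). H2O2 replicate 1 called 3 places, of which the last, nt 1858 to 1978, had a pileup of 149 and a fold of 13.8. Starve replicate 2, H2O2 replicate 2 and UT replicate 1 had none.

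CCN1 and CCN2, the matricellular targets shared by SRF and TEAD factors, differed in how often they were called. CCN1 was called near its 5′ end in Starve replicate 1, at nt 27 to 137 with a pileup of 86 and a fold of 5.0, and not in Starve replicate 2. Both UT lists called it, with folds of 1.88 and 2.87 for 2 peaks in replicate 1 and 2.59 in replicate 2, and with pileups of 57, 65 and 53. The Starve fold was above each UT fold, but rested on 1 of 2 replicates. CCN2 was not called in any Starve or UT list.

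**Figure D2:**
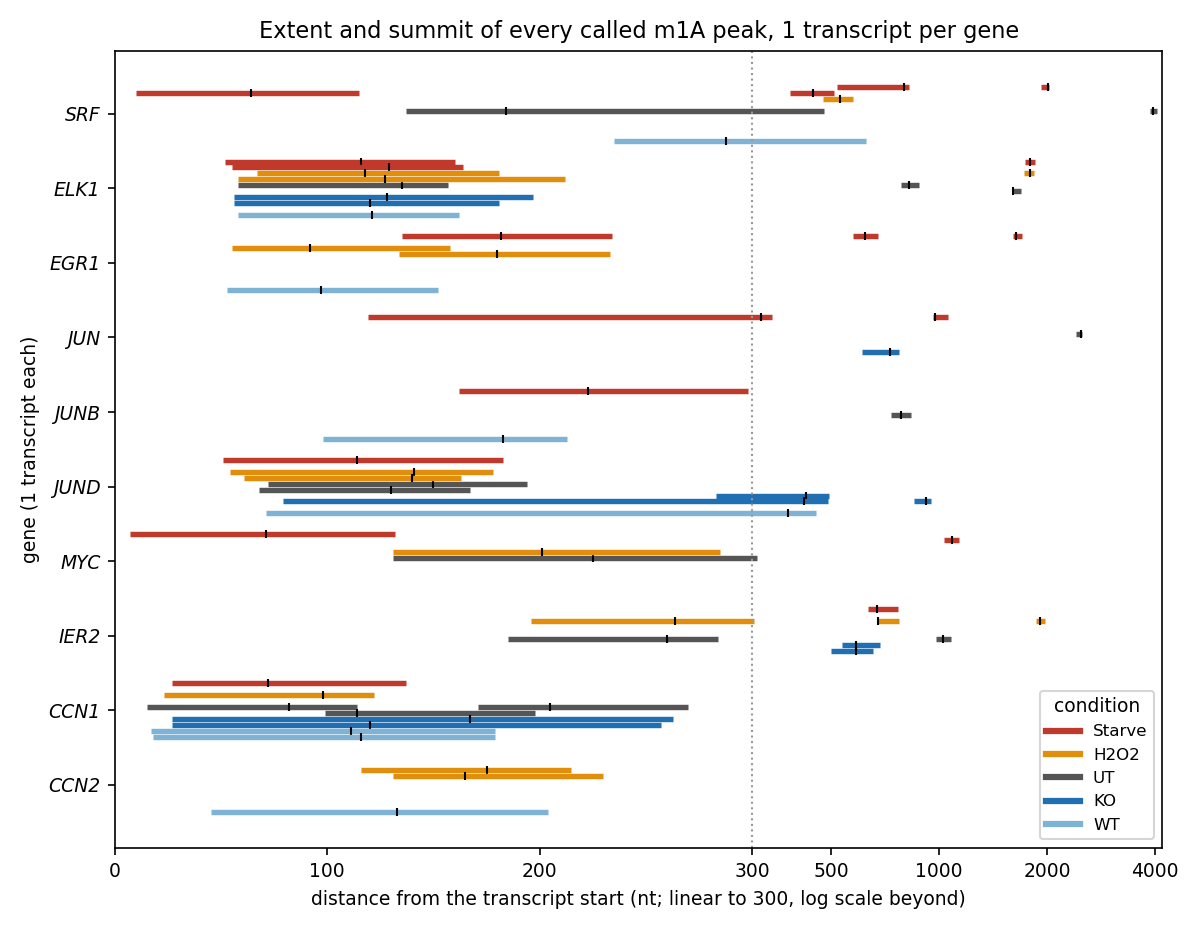
Every called peak of 1 transcript per gene, drawn as a bar from its start to its end with a black tick at the summit, against distance from the transcript start in nt (linear to 300, dotted line, and on a log scale beyond). Colour gives the condition and replicates are stacked. ELK1 and CCN1 peaks pile up at 1 place near the start, whereas SRF, JUN and IER2 peaks are scattered.

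More members had a region specific to H2O2 against UT than to Starve against UT, as counts, and whether the counts differ was not tested. Wherever the peaks lay, 4 members were called in both H2O2 lists, the same number as in both Starve lists. The share of all genes called in both H2O2 lists was again not computed. Regions in both H2O2 lists and neither UT list were found for 3 members, CCN2, EGR1 and ELK1, against 2.33% of all 7516 genes with a region in this comparison. The reverse was found for 0 members, against 5.49% of all genes. Both comparisons use the same UT lists, so the ELK1 region, absent from UT on NM_001114123 and NM_001257168 but called in UT replicate 1 on NM_005229, enters both. With 1 transcript per gene the H2O2-specific members were CCN2 and EGR1. Without UT replicate 1 or UT replicate 2 there were 4 UT-specific members, and without H2O2 replicate 1 there was 1, CCN1. Counting a gene wherever its peaks lay, 2 members, CCN2 and EGR1, were called in the H2O2 pair and not in UT, against 2.49% of all genes, and 0 the other way round, against 8.24%.

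CCN2, the connective tissue growth factor, had a pileup of 53 and 115 in H2O2, with folds of 1.79 and 4.79, at nt 116 to 215 and nt 131 to 230. Neither UT list held a CCN2 peak. WT replicate 2 did, at nt 45 to 204 with a pileup of 126 and a fold of 7.17, so the gene could be called in untreated cells of the other set. The EGR1 and CCN2 regions each had 1 H2O2 replicate with a fold under 2. When peaks were held to a −log10 q-value of at least 5, ELK1 alone remained of the 3, and when the lists were cut to equal length by rank EGR1 alone did. When an overlap of at least 50% of the shorter peak was required, CCN2 and ELK1 remained, without EGR1. With folds of at least 4 required, the H2O2-specific members were ELK1 and JUND.

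JUND was the sole member with a region in all 4 H2O2 and UT lists, against 2.65% of all genes. That held on NM_005354 alone. On NM_001286968 the region was called in both H2O2 lists and UT replicate 1, but not in UT replicate 2. The JUND pileups on NM_005354, given above, were 478 and 465 in H2O2 against 370 and 172 in UT, and did not overlap. The median pileup over all peaks did not overlap either, at 76 and 178 in H2O2 against 56 and 44 in UT. The share of regions without overlap was not counted. After each list was divided by its relative pileup over the 93 regions called everywhere, JUND stood at 471 and 335 in H2O2 against 346 and 228 in UT, and the groups overlapped. The authors state no normalization between lists, so neither version is a test of level.

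**Figure D3:**
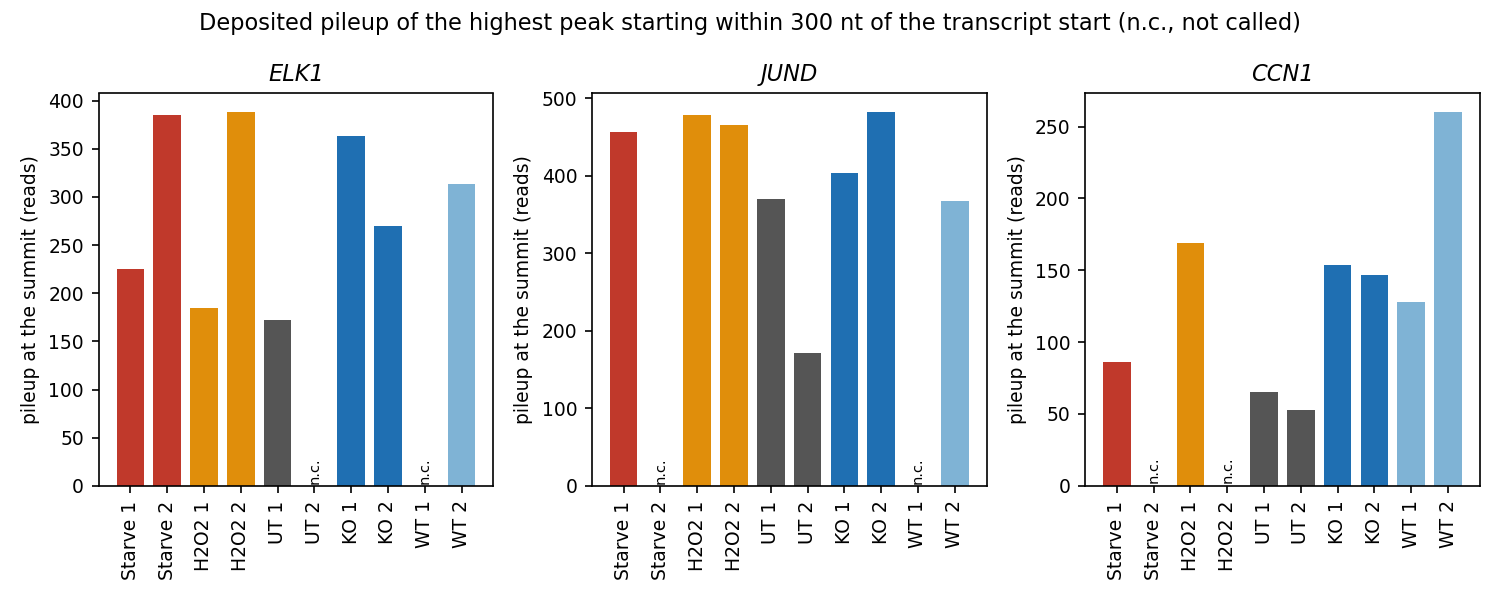
Deposited pileup (reads at the summit, from 0) of the highest peak starting within 300 nt of the transcript start, for ELK1 (NM_005229), JUND (NM_005354) and CCN1, in each of the 10 lists. Bars are single libraries with no normalization between them, and n.c. marks a list without a call. ELK1 reaches 388 in H2O2 replicate 2 and 172 in UT replicate 1, and CCN1 reaches 260 in WT replicate 2 and 65 in UT replicate 1.

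In KO and WT cells, 1 of the 10 genes, IER2, had a region specific to KO. A region found in the pair of KO lists but in no WT list is common, at 18.9% of all 3903 genes with a region in this comparison, and the reverse was found for 0 members, against 5.2% of all genes. The IER2 region was lost when folds of at least 4 were required and when lists were cut to equal length. Wherever the peaks lay, 4 members were called in both KO lists, and the share of all genes was not computed. Counted in that way, IER2 was again the sole member of the first kind, against 16.3% of all genes, and 0 were of the second, against 4.97%. The IER2 peaks had a pileup of 194 and 230 in KO, folds of 3.22 and 4.0, and summits at nt 584 and 585. Starve replicate 1 and H2O2 replicate 1 had IER2 peaks that began further on, at nt 631 and 671, and overlapped the first KO peak. WT replicate 1 called only CCN1 of the members, and without WT replicate 2 the KO-specific members were ELK1, IER2 and JUND. Without KO replicate 1 they were IER2, JUN and JUND, and without WT replicate 1 there were 4 WT-specific members.

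CCN1 was the sole member with a region in all KO and WT lists, against 8.35% of all genes, and its peak was longer in KO. The pileup was 154 and 147 in KO against 128 and 260 in WT, and the fold 6.43 and 6.87 in KO against 6.91 and 8.55 in WT. The peak ran from nt 27 to 263 and from nt 27 to 257 in KO, against nt 17 to 179 and nt 18 to 179 in WT. Both KO peaks ended further downstream than both WT peaks, as happened in 25.9% of the 482 regions with a single peak in each of the 4 lists. The mean shift of the CCN1 end, 81.0 nt further in KO, was larger than in 90.2% of these regions, whose median shift was 5.5 nt. The summits were at nt 167 and 120 in KO against nt 111 and 116 in WT.

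Between the 2 untreated wild-type sets, CCN1 was again the sole member with a region in all 4 lists, against 3.94% of all genes. Regions in the pair of UT lists but in no WT list were found for 0 members (6.58% of all 6669 genes), and the reverse likewise for 0 (2.98%). Counted anywhere on the gene, the numbers were 0 (14.2% of all genes) and 0 (1.57%). Without UT replicate 1 or UT replicate 2 there were 4 UT-specific members, without WT replicate 2 there was 1, and without WT replicate 1 there were 4 WT-specific ones. CCN1 folds were 1.88, 2.87 and 2.59 in UT against 6.91 and 8.55 in WT, and the pileups 57, 65 and 53 in UT against 128 and 260 in WT. With folds of at least 4 required, CCN1 became specific to WT. Both groups are labelled as untreated wild-type HEK293T cells.

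Window coverage gives the shape of the signal inside a peak for the KO and WT cells. The authors deposited coverage in 10 nt windows that advance by 5 nt, scaled so that a region sums to about 200, for IP libraries and for IP libraries treated with a demethylase, which serves to strip m1A. CCN1 was present in all 4 files, while ELK1, IER2 and JUND were present in both KO files only. The treated profile was the same in both files of a genotype, proportional in 99.6% of KO and 99.7% of WT transcripts, so it was counted as 1 library. Windows were tested with limma on log2(coverage + 1), rescaled to the same sum over the windows shared by the libraries, with Benjamini-Hochberg adjustment over all windows.

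In IP coverage of CCN1, the 3′ part of the region held more of the signal in KO and the 5′ part less, without passing the test. At nt 171 to 180 the rescaled coverage was 9.53 and 8.74 in KO against 2.81 and 2.13 in WT, a log2 difference of 1.55 ± 0.13 (SE; limma, adjusted p = 0.119). At nt 51 to 60 it was 3.74 and 4.07 in KO against 7.20 and 8.60 in WT, a log2 difference of -0.85 ± 0.11 (SE; limma, adjusted p = 0.119). The libraries of the 2 genotypes do not overlap at either place, but the share of all windows without overlap was not counted. Of 34 CCN1 windows, 0 passed an adjusted p of 0.05, as did 0 of 2844 windows in all, and 28 of the 34 had an unadjusted p under 0.05, against 20.5% of all windows. Neighbouring windows share reads and are not independent.

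The centre of CCN1 IP coverage over the shared windows was at nt 121 and 117 in KO against nt 97.3 and 91.7 in WT. The mean difference of 24.6 nt was exceeded by 1 of the 87 transcripts with at least 20 windows shared by the 4 files, whose differences ranged from -12.7 to 28.8 nt with a median of 2.92. Both KO centres lay downstream of both WT centres in 41.4% of these transcripts.

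CCN1 coverage after demethylase treatment had another shape than IP coverage in either genotype, without passing the test. In KO the coverage at nt 46 to 55 was 7.67 after treatment against 2.47 and 2.80 in IP, a log2 difference of 1.25 ± 0.11 (SE; limma, adjusted p = 0.134). At nt 151 to 160 it was 1.35 after treatment against 5.64 and 5.18 in IP, a log2 difference of -1.45 ± 0.10 (SE; limma, adjusted p = 0.13). The treated profile in KO thus lay above both IP libraries at the first place and below both at the second. In WT the coverage at nt 171 to 180 was 11.6 after treatment against 2.81 and 2.13 in IP, a log2 difference of 1.87 ± 0.20 (SE; limma, adjusted p = 0.0626). At nt 111 to 120 it was 5.67 after treatment against 9.73 and 9.23 in IP, a log2 difference of -0.65 ± 0.14 (SE; limma, adjusted p = 0.125).

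None of these CCN1 windows passed the test. In KO, 0 of 50 passed and 46 had an unadjusted p under 0.05, and in WT 0 of 33 passed and 8 did. Over all genes, 0 of 27981 windows passed in KO (22.8% at an unadjusted p under 0.05) and 487 of 12748, or 3.82%, passed in WT (0.18% higher and 3.64% lower after treatment, and 28% at an unadjusted p under 0.05). The WT windows that passed numbered 0 without rescaling and 0 with a pseudocount of 5, and 87 higher and 264 lower of 6698 at a mean coverage of at least 5. With 1 treated profile against 2 IP libraries, the treated profile is assumed to vary as the IP libraries do. The design thus has no replicate check of the treatment itself. The difference between the genotypes in the effect of treatment was not tested with the treated profile counted once.

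**Figure D4:**
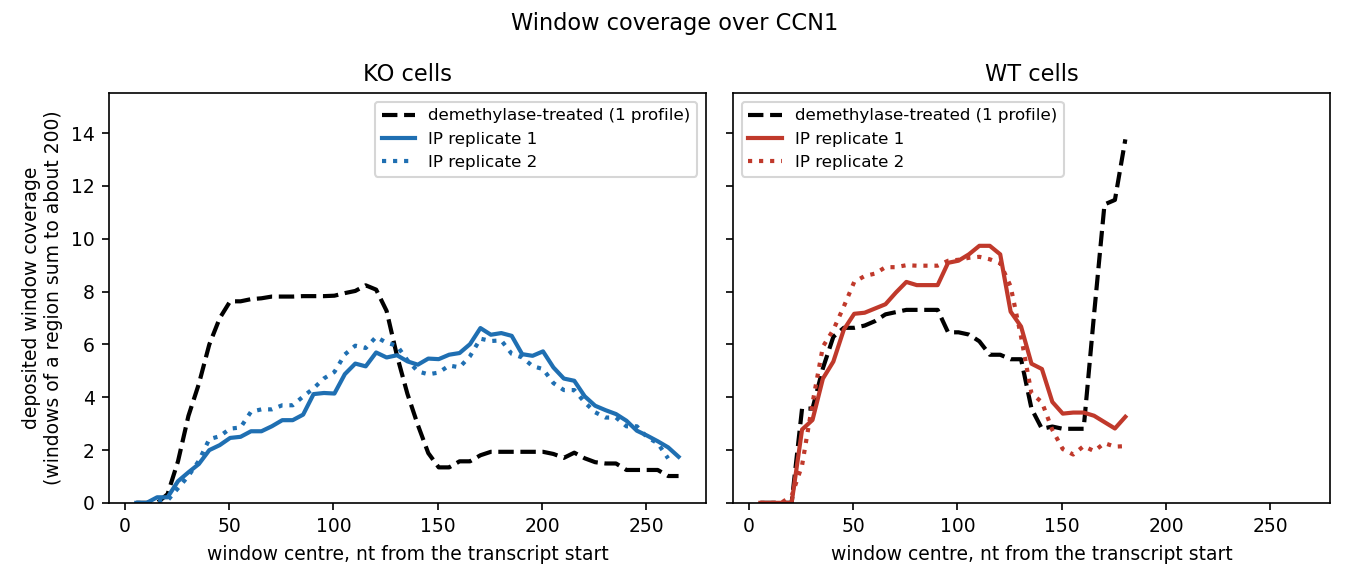
Deposited coverage of CCN1 in 10 nt windows (y axis, windows of a region summing to about 200) against the window centre in nt from the transcript start, in KO cells (left) and WT cells (right). The dashed black line is the demethylase-treated profile and the solid and dotted coloured lines are the IP replicates. In KO the treated profile is highest at nt 111 to 120, and in WT it is highest in the last window, nt 176 to 185.

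In the other genes with windows in KO, treated and IP coverage lay closer together. Each file gives a centre of the same treated profile over its own stretch, so the paired treated values below are not replicates. The stretches were nt 484 to 688 and nt 449 to 658 for IER2, and nt 233 to 497 and nt 29 to 493 for JUND on NM_005354. For IER2 the centre of coverage was at nt 577 and 562 after treatment against nt 594 and 572 in IP, and 0 of 34 windows passed the test, with 15 at an unadjusted p under 0.05. For ELK1 on NM_005229, 0 of 31 windows passed and 0 had an unadjusted p under 0.05. The ELK1 centre on NM_005229 was at nt 129 and 124 after treatment against nt 135 and 125 in IP. On the other transcripts the order was opposite, at nt 126 and 119.7 after treatment against nt 124 and 116 in IP on NM_001114123, and at nt 129.9 and 123 after treatment against nt 124 and 117 in IP on NM_001257168. These ELK1 transcripts, NM_001114123 and NM_001257168, had windows on different grids in the KO files, and were not tested. JUND likewise had windows in both KO files, but on different grids, and was not tested. The JUND centre on NM_005354 was at nt 375 and 324 after treatment against nt 380.2 and 329 in IP. In each file treated and IP coverage of JUND on NM_005354 were thus less than 5 nt apart.

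Member summits were common close to the transcript start when all lists were pooled. Of 100 member peaks, 58 (58.0%, 95% Wilson interval 48.2 to 67.2%) had the summit within 300 nt, against 41.1% of all peaks. By condition the count was 13 of 27 (48.1%) in Starve, 17 of 23 (73.9%) in H2O2 and 10 of 21 (47.6%) in UT. It was 9 of 18 (50.0%) in KO and 9 of 11 (81.8%) in WT. Over all peaks the share was 30.8% in Starve, 38.2% in H2O2, 34.3% in UT, 72.1% in KO and 66.7% in WT. The member share was thus below that of all peaks in KO and above it in the other conditions. The interval covers counting error only, and peaks on several transcripts of ELK1, JUND and SRF repeat the same reads.

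Genes related to these by pathway were read the same way, as counts. A gene named below as specific to a condition had a specific region, and could have other peaks in the other condition. Of 14 other immediate early transcription factors such as FOSL2 and EGR3, 8 had a region in Starve or UT lists, and 0 were specific to either. Of 22 other immediate early genes, 12 had a region and 2 were Starve-specific. They were ZFP36L1 and ZFP36L2, which encode proteins that promote decay of AU-rich messenger RNAs. ZFP36L2 had folds of 2.07 and 2.68 in Starve in a region at nt 29 to 248. ZFP36L1 had folds of 4.01 and 3.80 in Starve on NM_004926, at nt 1390 to 1548.

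Among SRF partners and cytoskeletal targets, all 12 had a region in Starve or UT lists. FLNA, an actin crosslinker, had a Starve-specific region with folds of 2.65 and 3.02, whereas MYH9, non-muscle myosin, and TPM4, a tropomyosin, had UT-specific regions. As whole genes, MYH9 was called in all 10 lists, and FLNA in both Starve and both UT lists. MYH9 had folds of 2.33 and 4.45 in UT at nt 83 to 244. In the YAP/TAZ-TEAD axis 8 of 15 genes had a region, and TEAD4 was Starve-specific with folds of 2.72 and 4.45. In the MYC network 9 of 12 had one, and MXI1, a MYC antagonist, was Starve-specific with folds of 2.89 and 2.96. Of 12 JUN partners and kinases 8 had one. A region of MAP2K1, the kinase upstream of ERK, was UT-specific with folds of 3.54 and 4.93, although Starve replicate 2 called the gene elsewhere. These counts stand against the 5.34% and 4.06% of all genes given above.

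In KO against WT, 7 of the 22 other immediate early genes had a region and 5 were KO-specific: CCNL1, ID2, MCL1, RHOB and ZFP36L1. All genes with a region gave 18.9%. In the other lists ACTG1, a cytoplasmic actin, TPM4, MXD3, a MYC antagonist, and MAP2K1 were KO-specific, although both WT lists called MAP2K1 elsewhere. TEAD1, a TEAD factor, went the other way and was WT-specific, with folds of 11.9 and 10.7 in WT at nt 12 to 204, also in the comparison of UT with WT. ID2, an inhibitor of basic helix-loop-helix factors, had folds of 10.8 and 7.59 in KO at nt 95 to 243. RHOB, a small GTPase, had pileups of 632 and 655 in KO. RHOB was also specific to H2O2 against UT, with pileups of 305 and 776 in H2O2 and folds of 1.28 and 3.35. TPM4 had folds of 8.72 and 12.4 in KO, while it was also called in both UT lists. Against WT, MYH9, TPM4 and MAP2K1 were UT-specific, and MXI1 and MAP2K2, a further kinase upstream of ERK, were WT-specific. Against UT, FLNA was H2O2-specific, and MYH9, TPM4 and MAP2K1 were UT-specific, as were the HEK293T markers INA and NEFM, both also UT-specific against WT.

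A few other genes had exactly the calling pattern of a member over the 10 lists. The pattern of CCN1 was shared by 8 genes, of which EXOSC8, TEAD3 and NXPH4 had the highest median folds (11.2, 8.69 and 6.06). ELK1 and JUND had the same pattern as each other, and each shared it with 28 genes in all, led by MPV17L2, LBR and ILRUN. The pattern of SRF was shared by 31 genes, that of MYC by 16, those of IER2 and JUNB by 9 each, that of JUN by 4 and that of EGR1 by 3. No other gene had the pattern of CCN2.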

How the data were processed

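The labels describe 24 libraries in 12 groups of HEK293T cells. Trim Galore, HISAT, MACS2 and build hg19 appear in the submitters' processing notes, without versions. Peaks were called with MACS2 per replicate on RefSeq transcripts, per the file headers. The pileup signal, the fold enrichment (a ratio over local background) and the −log10 p-values and q-values are as the authors deposited them. The windowed coverage signal was scaled by the authors. Which input served as control is not stated. Labels of the untreated libraries point to the Starve lists. The UT lists were assigned by their own names, although their peak names carry the letters WT, and every UT comparison rests on that.

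Symbols came from a RefSeq table (GRCh38.p14), matching 17018 of 17315 transcripts. Windows were fitted with limma 3.58.1 (R 4.3.3) with a pseudocount of 1, after tests on simulated data. The ratio of treated over IP coverage, designed first, was replaced by IP coverage because treated profiles were not replicated. All members are named. Related genes were limited to 4 per list by specific calls, then by number of lists, besides all genes specific to a condition. The limma p-values reflect spread among these libraries alone, which may be technical. The members and lists were chosen with earlier results of these data known.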

Additional observations from a re-analysis of the deposited data

How the results depend on the processing

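Counts of specific members depended on single lists. With 1 list left out, a single list decides for its condition, and the shares of all genes under that looser rule were not computed. Leaving out 1 list at a time gave 1 to 6 Starve-specific members (6 without Starve replicate 1, 4 without Starve replicate 2), and 0 to 4 UT-specific ones in the same comparison. It gave 3 to 4 H2O2-specific and 0 to 4 UT-specific members, 1 to 3 KO-specific and 0 to 4 WT-specific members, and 0 to 4 on either side of UT against WT. With 1 transcript per gene, added after seeing the data, Starve-specific members numbered 0. A −log10 q-value of at least 5 left 1 H2O2-specific member, and equal numbers of top peaks left 1. An overlap of at least 50% of the shorter peak gave 2, and a fold of at least 4 gave 2, of which JUND was new. A fold of at least 4, and equal numbers of top peaks, each left 0 KO-specific members and gave 1 WT-specific member against UT. The share of summits within 300 nt moved under no setting by more than its interval.

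In WT, a mean coverage of at least 5 passed 2 CCN1 windows between treated and IP coverage. Counting the treated column of each file as a library, as first designed, repeats 1 profile. Together with no rescaling it passed 11 of 33 member windows in WT and 60 of 115 in KO. For the log2 ratio between KO and WT it passed 28 of 34. Over all windows it passed 1633 higher and 2479 lower of 12794 in WT, and 2728 higher and 3883 lower of 28050 in KO. For the ratio it passed 358 higher and 217 lower of 2849. Differences between replicates were nearly uncorrelated between KO and WT IP libraries (r = 0.037 over 2922 windows). This cannot show whether same-numbered libraries shared a culture or batch, and the other conditions were not checked. With a replicate block alone, 0 windows passed in KO against WT IP coverage. With the block, the repeated treated column and no rescaling together, 5 of 33 member windows passed in WT and 43 of 115 in KO. Over all windows 778 higher and 1749 lower of 12794 passed in WT, and 1329 higher and 2548 lower of 28050 in KO. KO against WT IP coverage was also fitted without each replicate in turn, which leaves 1 library in a group, so effect sizes alone are given. The median log2 difference over all windows was -0.0082 without KO replicate 1 and -0.0124 without KO replicate 2. It was -0.0053 without WT replicate 1 and -0.0137 without WT replicate 2. Leaving out a replicate was not run for treated against IP coverage, where no residual degrees of freedom remain. Unknown read depth limits every absence of a call.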
